A study of Drosophila melanogaster with 3 samples.

Results

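Class X is the set of cells that the deposited annotation left without a neuron type: 329 of 6003 annotated cells sorted from brains of Drosophila melanogaster pupae, chosen here by that label alone. They numbered 78 of 2595 cells at 48 h after puparium formation (APF), 125 of 2369 at 72 h APF and 126 of 1039 at 96 h APF. The annotation was made by clustering the cells of each stage, and the legend of the study calls these cells unknown and ectopic. The other cells carried the name of a visual projection neuron, with 2910 cells of LPLC2 (1442, 994 and 474 at 48, 72 and 96 h APF), 1554 of LPLC1 (690, 646 and 218) and 1210 of LC4 (385, 604 and 221).

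The study collected these neurons by fluorescence-activated sorting of dissociated brains. Every animal carried a split-GAL4 driver for LPLC2, LPLC1 or LC4 with a nuclear GFP reporter. It also carried a chromosome from an inbred wild-type strain of the Drosophila Genetic Reference Panel, a DGRP strain. Pupae were kept at 25 °C with no other treatment. For each cell type and stage the strains were split into an early and a late collection group. Animals of the early group were older on average at dissection, so the spread between strains includes a difference in age. All crosses of a stage were pooled in 1 single-cell library on 1 lane, and each cell was given back to its strain by the strain's sequence variants. The strains 399, 535, 730, 799 and 805 were used at every stage, with 555 at 48 h APF and 320 at 72 and 96 h APF, and the LC4 driver was not crossed to 320 and 730 at the later stages. A split-GAL4 driver labels the cells in which both of its parts are active, so sorted cells need not be of 1 type, and the driver cross of an X cell is not known from the files. Stage, library and read length (longer at 48 h APF) cannot be told apart. The strain was the replicate here: 6 strains at each stage for X, LPLC2 and LPLC1, and 6, 4 and 4 strains for LC4 at 48, 72 and 96 h APF. Levels are unique molecular identifiers (UMIs, single captured transcripts) of a gene per 10000 UMIs of the cells summed, written TP10K.

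LPLC2, LPLC1 and LC4 neurons send their axons from the optic lobe to the central brain and take part in the detection of looming and moving objects; they release acetylcholine. A fly neuron is commonly identified by the transcription factors it keeps expressing and by its transmitter genes: ChAT and VAChT for acetylcholine, VGlut for glutamate, Gad1 and VGAT for GABA, and Vmat for monoamines. It also carries its own set of cell-surface recognition proteins, such as the immunoglobulin proteins of the DIP, Dpr, Beat and Side families through which neurites find partners. In the second part of pupal life optic-lobe neurons form synapses, and pulses of the steroid ecdysone switch stage-specific transcription factors on and off across neuron types.

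The depth of X varied more between strains than that of the named types. Strain medians of X came from 9 to 29 cells, fewer than in most strains of the named types. The part of cell number in this spread was not tested. At 48 h APF the SD over strains was 4434 UMIs in X and 3971 UMIs in LC4. The 78, 125 and 126 cells held 1633466, 2534018 and 2589430 UMIs, with medians of 19584.5, 18527 and 17759 UMIs and 3296, 3017 and 3066.5 detected genes a cell, and single cells ranged between 5024 and 48572 UMIs. The strains' median UMIs were compared with those of each named type in 9 exact two-sided permutation tests paired by strain. The lowest p was 0.0312 (the smallest that 6 pairs allow in this exact test; 0.281 adjusted over the 9). It was found against LPLC1 at 72 h APF, with 17622 ± 4658 UMIs in X and 23284 ± 895 UMIs in LPLC1 (SD over the strains). The stages shared 8 barcodes between their libraries (2, 1 and 5 for the pairs of stages), and none of these was labelled X at both stages of its pair. Barcodes with variants of several strains had been marked by the study (405, 445 and 41) and are not among the annotated cells. Doublets of cells of the same strain cannot be found in that way, and no further doublet caller was run.

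X made up a larger share of the annotated cells at each later stage. It was 3.01, 5.28 and 12.1% at 48, 72 and 96 h APF, with exact (Clopper-Pearson) 95% intervals of 2.38 to 3.74%, 4.41 to 6.25% and 10.2 to 14.3%. These and the other intervals on shares and ratios cover counting error only. Over the strains the share averaged 3.04 ± 0.972%, 5.4 ± 1.24% and 12.2 ± 3.35% (SD, n = 6), and each strain gave 9 to 21, 13 to 29 and 10 to 29 X cells. The lowest and highest strains were 2.09% and 4.91% at 48 h APF, 4.22% and 7.59% at 72 h APF, and 6.29% and 15.1% at 96 h APF, so that the strains of neighbouring stages overlapped in their shares. A stage is 1 sorted sample, so these shares describe 3 collections and were not tested across stages. Among cells with 10000 to 50000 UMIs and at most 10% mitochondrial UMIs, of which 67, 90 and 91 were X cells, the mean shares were 2.98, 4.35 and 10.5%.

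**Figure D1:**
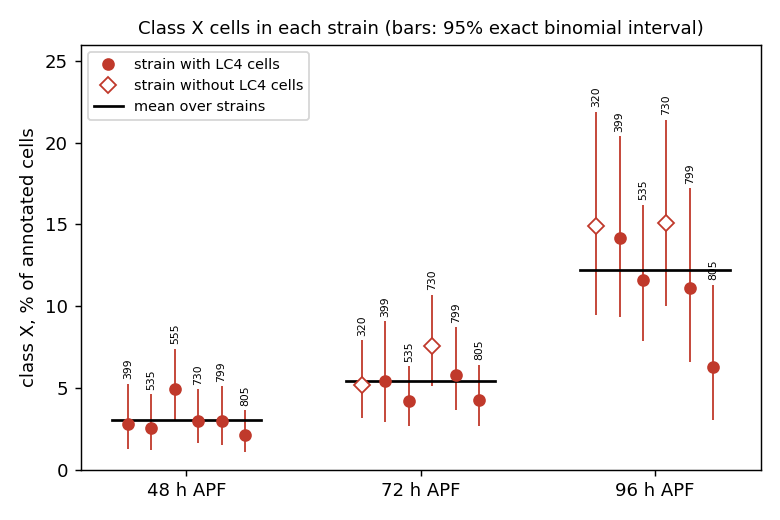
Percent of annotated cells of each DGRP strain that carried the label X, by stage (h APF); each point is a strain and the bar is the mean over 6 strains. The means were 3.04, 5.4 and 12.2% at the 3 stages, and strain 555 stood highest at 48 h APF with 4.91%.

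The strains without the LC4 driver also yielded X cells. At 72 h APF strains 320 and 730 held 5.15% and 7.59% X cells, and at 96 h APF 14.9% and 15.1%. The mean at 72 h APF was 6.37 ± 1.73% in the 2 strains without the LC4 cross and 4.92 ± 0.805% in the 4 strains with it (SD; p = 0.4, exact two-sided permutation test). The same comparison at 96 h APF gave 15 ± 0.141% without the LC4 cross and 10.8 ± 3.3% with it (p = 0.133, the smallest p that this exact test allows). Strains without LC4 cells have fewer cells in the denominator. Per 100 LPLC2 and LPLC1 cells the difference between the 2 sets of strains was -1.84 X cells (p = 0.4, exact permutation test) and -0.875 X cells (p = 0.667, exact permutation test), which is the other direction.

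X cells were neurons by their markers. At least 10 UMIs of 5 neuronal genes (elav, nSyb, brp, Syt1 and onecut) were found in 78 of 78, 120 of 125 and 126 of 126 X cells. Their summed level ranged over the strains between 42.4 and 49.7, 44.7 and 59.9, and 56.4 and 65.2 TP10K. The same count of 10 UMIs was reached for 6 glial genes (repo, moody, nrv2, alrm, Gs2 and Eaat1) in 3, 5 and 2 X cells and for 4 photoreceptor genes in 3, 2 and 1 X cells. The glial sum ranged between 0.595 and 2.42, 0.531 and 15.7, and 0.282 and 2.68 TP10K over the strains, and at 72 h APF 86.3% of it lay in 10 cells; repo and alrm were at 0 UMIs at 48 h APF. The photoreceptor sum ranged between 0 and 2.12, 0.0233 and 10.6, and 0.0636 and 20.1 TP10K. The muscle list (Mhc, sls and Mef2, the last also used by neurons) reached it in 3, 3 and 6 X cells. No X cell reached 10 UMIs of the hemocyte or neuroblast genes, and dpn, ase and wor were at 0 UMIs at 72 and 96 h APF. Leaving out the 6, 7 and 2 X cells with glial or photoreceptor signal moved no gene total given below by more than 1.5 times. This holds for the totals of genes against all 3 named types and between stages. Cell counts and divisions below include these cells and were not recomputed.

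The 3 genes that stand beside X in the annotation each marked a fraction of it. The BTB zinc-finger gene br is FBgn0283451, on chromosome X at 1575132 to 1664869 of the dm6 build, plus strand. Over the X strains br ranged between 6.06 and 23.5 TP10K (median 14.8), 2.54 and 11.5 (median 5.4), and 3.8 and 6.95 (median 5.46) at 48, 72 and 96 h APF. At the first stage br averaged 14.7 ± 7.11 TP10K in X, against 0.269 TP10K in LPLC2, and 49.2 and 32.8 TP10K in LPLC1 and LC4. The strains of X lay between those of LPLC2 and those of the other types without overlap at every stage. The LIM-homeodomain gene Lim1 (X 8756539 to 8805804, minus strand) averaged 4.99 ± 2.96, 2.88 ± 1.45 and 2.6 ± 1.25 TP10K in X at 48, 72 and 96 h APF. Its X strains ranged between 0.345 and 9.52, 1.03 and 4.67, and 0.782 and 3.82, and the named types had 7.34, 6.63 and 0.0289 TP10K (LPLC2, LPLC1, LC4) at 96 h APF. The spalt-family zinc-finger gene salr (2L 11358873 to 11373636, plus strand) averaged 3.55 ± 1.85, 1.35 ± 0.517 and 2.05 ± 0.381 TP10K in X, and at 96 h APF 3.67, 4.08 and 0.0203 TP10K in LPLC2, LPLC1 and LC4. None of the 3 was higher, or lower, in X than in all the named types.

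Single X cells combined these markers in ways that the averages hide. With 3 UMIs as the least count for a gene in a cell, br was found in 52.6, 32.8 and 48.4% of X cells at 48, 72 and 96 h APF, salr in 46.2, 30.4 and 35.7% and Lim1 in 29.5, 27.2 and 23.8%. The pair of br and salr without Lim1 was found in 28, 22 and 29 X cells, Lim1 alone in 7, 21 and 13, and all 3 genes in 1, 1 and 0. No marker reached 3 UMIs in 23, 48 and 36 X cells. Cells with different marker combinations thus share the label, and no cell type name is given to X here.

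Set against the named types at the same stage, X stood out in both directions. A gene was called different where the fitted difference was at least 2-fold (log2 1, edgeR fit with the strain as a block), the higher group averaged at least 0.5 TP10K, and the strain values of the groups did not overlap. Since the labels come from clusters of these very genes, the calls describe the classes and no p is given. Higher in X than in each of LPLC2, LPLC1 and LC4 were 108 of 6373 genes (1.69%), 120 of 6665 (1.8%) and 157 of 5761 (2.73%) at 48, 72 and 96 h APF. Lower than in each were 52 (0.816%), 56 (0.84%) and 61 (1.06%). Against single types, 4.08, 3.44 and 4.89% of genes were higher in X than in LPLC2 and 3.01, 3.23 and 3.32% lower. Against LPLC1 3.12, 3.66 and 4.88% were higher in X and 2.43, 2.69 and 3.54% lower. Against LC4 the calls were most frequent at every stage, with 5.01, 6.9 and 8.63% higher in X and 4.25, 5.34 and 6.82% lower.

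The RNA-binding protein gene bru3 (FBgn0264001, 3L 13521907 to 13803400, minus strand) separated most X cells from the named types. Its X strains ranged between 20.9 and 42.5 TP10K (median 33.2), 33.2 and 47.5 (median 38.4), and 28.5 and 47.6 (median 42.5) at 48, 72 and 96 h APF. At the first stage bru3 averaged 33.2 ± 7.94 TP10K in X, against 0.0286, 0.0405 and 0.109 in LPLC2, LPLC1 and LC4. Its means at 72 h APF were 38.6 ± 5.12 TP10K in X, against 0.0911, 0.0515 and 0.0973 in LPLC2, LPLC1 and LC4, and at 96 h APF 39.8 ± 8.31 TP10K in X, against 0.134, 0.0597 and 0.084. No strain overlapped between X and a named type: the 4 LC4 strains, for example, had 0.102, 0.0765, 0.13 and 0.081 TP10K at 72 h APF. At least 3 UMIs of bru3 were counted in 93.6, 85.6 and 85.7% of X cells and in at most 1.56% of the cells of any named type. Over the pooled cells the level in X was 303 to 1320 times that of the named types.

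**Figure D2:**
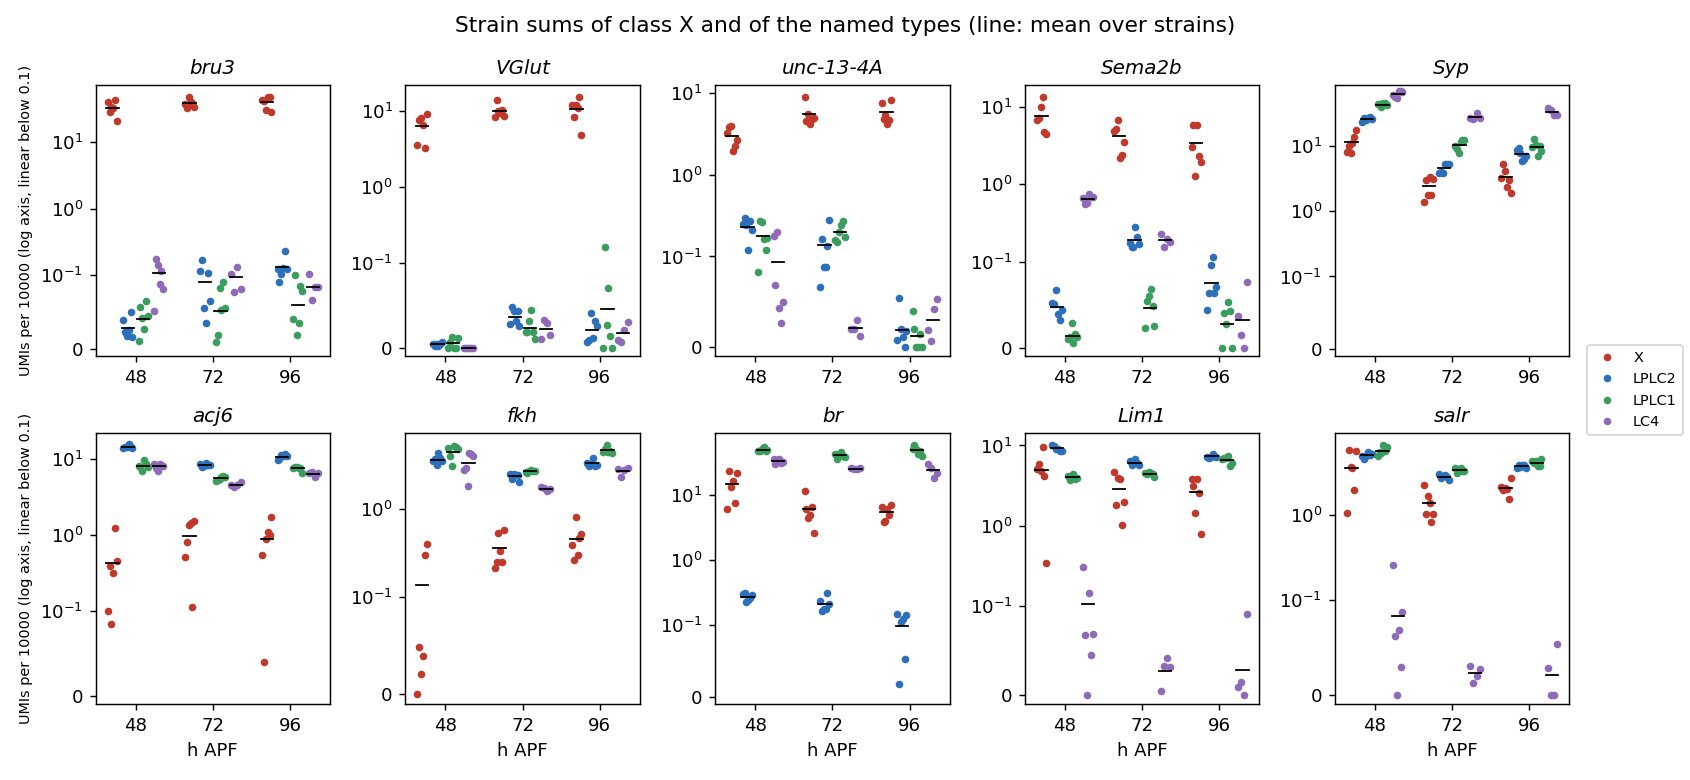
Level of 10 genes in UMIs per 10000 (TP10K, log axis that turns linear near 0) for each strain in X, LPLC2, LPLC1 and LC4 at 48, 72 and 96 h APF; each point is 1 strain and each line a mean over strains. bru3 and VGlut lay far above the named types in every X strain, acj6 and fkh below them, and br, Lim1 and salr lay between or within the named types.

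Transcription factors separated X from the named types mainly by genes that the named types hardly express. Of a list of 148 factors, 55, 75 and 67 could be compared at 48, 72 and 96 h APF. In X 8, 7 and 9 of them were higher than in each named type and 3, 2 and 3 were lower, against 1.69, 1.8 and 2.73% higher and 0.816, 0.84 and 1.06% lower among all genes. The median difference of the list at 48 h APF was 1.42, 1.55 and 0.75 on the log2 scale against LPLC2, LPLC1 and LC4. The list's medians were 3.74, 3.41 and 1.89 at 96 h APF, and the medians of all genes lay between -0.047 and 0.055. A list gene entered the comparison when X or a named type expressed it, and the list holds factors that many neuron types use singly. Members that entered through X alone can only stand higher in X. The medians and the counts of higher factors follow in part from that rule and are no result about the list. The homeobox gene scro (3L 24724162 to 24758036, plus strand) was higher at every stage. In X scro averaged 2.06 ± 1.25 TP10K (strains 0.394 to 3.16, median 2.66), 1.55 ± 0.71 (0.638 to 2.39, median 1.79) and 2.19 ± 0.892 (1.03 to 3.5, median 2.2). The named types averaged at most 0.0241 TP10K of scro at any stage. The homeobox gene otp averaged 1.83 ± 1.06, 0.763 ± 0.465 and 0.956 ± 0.641 TP10K in X. At 48 h APF LPLC2 and LC4 had 0 UMIs of otp, which puts X at least 1510-fold higher than LPLC2 and at least 523-fold higher than LC4 (3 UMIs over the type's cells as the floor). LPLC1 had 1 UMI of otp, for a ratio of 2540 (interval 452 to 101000).

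Further factors were higher in X at some of the stages. The nuclear receptor gene svp passed at 48 and 72 h APF, with 0.578 ± 0.233 and 0.789 ± 0.469 TP10K in X. Among cells with 10000 to 50000 UMIs and at most 10% mitochondrial UMIs svp no longer passed at 48 h APF (log2 difference to the nearest type of 7.30). The eyes absent co-activator gene eya (0.576 ± 0.141 and 0.595 ± 0.274 TP10K in X) and the dachshund gene dac (1.34 ± 0.647 and 1.4 ± 0.61) passed at the same stages. At 48 and 72 h APF 10 X cells held 92.7 and 69.7% of the UMIs of svp. For eya they held 98.0 and 71.4%, and for dac 80.9 and 49.2%. For dac the pooled level at 72 h APF was 410 times that of LPLC2, 253 times that of LPLC1 and 306 times that of LC4. The wing selector gene vg (1.12 TP10K in X), the LIM-homeobox gene Lmx1a (0.655) and Mef2 (0.967 in X, against 0.116, 0.263 and 0.038 in LPLC2, LPLC1 and LC4) passed at 48 h APF. SoxN (0.544 and 0.638 TP10K) and the zinc-finger gene CG9650 (1.88 and 2.06) passed at the later stages. At 96 h APF the homeobox gene hth averaged 12.4 ± 3.43 TP10K in X (strains 8.54 to 17.3, median 11.7), against 3.44, 2.28 and 3.95 TP10K in LPLC2, LPLC1 and LC4. The homeobox gene CG4328 had 0 UMIs in all named types at 96 h APF and 0.505 TP10K in X, at least 111-fold above LPLC2, at least 55.8-fold above LPLC1 and at least 67.9-fold above LC4. Without strain 320 or 805 the call of CG4328 was lost (log2 differences to the nearest type of 8.04 and 8.02). The POU gene vvl averaged 1.14 TP10K in X at that stage, pdm3 0.695 TP10K and the homeobox gene dve 1.01 TP10K, of which 97.2% lay in 10 cells.

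Factors shared by the 3 named types were low in X. The POU gene acj6 (X 15350239 to 15379064, minus strand) ranged over the X strains between 0.0846 and 1.24 TP10K (median 0.352), 0.112 and 1.54 (median 1.08), and 0.04 and 1.74 (median 0.943) at 48, 72 and 96 h APF. Its mean at 48 h APF was 0.432 ± 0.425 TP10K in X, against 14.3, 8.1 and 8.0 in LPLC2, LPLC1 and LC4 (log2 differences of -5.12, -4.26 and -4.33, with SE of 0.28, 0.285 and 0.286). In X acj6 averaged 0.886 ± 0.568 TP10K at 96 h APF, against 10.7, 7.48 and 6.36 TP10K in LPLC2, LPLC1 and LC4. The 4 LC4 strains had 6.48, 6.62, 5.73 and 6.6 TP10K. No X strain reached the lowest strain of a named type at any stage. The forkhead gene fkh (3R 28580976 to 28585264, minus strand) averaged 0.136 ± 0.172, 0.359 ± 0.159 and 0.459 ± 0.198 TP10K in X, and at 48 h APF 3.67, 4.52 and 3.38 TP10K in LPLC2, LPLC1 and LC4. The T-box gene bi was lower than in all types at 48 h APF (1.21 TP10K in X, against 14.0, 9.56 and 8.91) and at 96 h APF (2.91 TP10K in X, against 9.21, 6.3 and 5.24).

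The remaining annotation factors, which divide the named types among themselves, were at intermediate or low levels in X. Sox102F averaged 1.85, 1.14 and 1.7 TP10K in X at 48, 72 and 96 h APF, below its level in LPLC2 (7.64, 6.14 and 6.94). The LC4 factor kn averaged 1.07, 0.892 and 1.35 TP10K in X, and 11.5, 4.92 and 7.93 TP10K in LC4, while lov averaged 0.807, 0.342 and 0.992 TP10K in X, and 2.51, 1.13 and 1.95 TP10K in LC4. Levels of tup (0.0551, 0.313 and 0.783 TP10K in X) were below those of LPLC1 (2.04, 1.18 and 2.07), and those of Lim3 (0.0374, 0.163 and 0.384 TP10K in X) below those of LC4 (1.71, 1.78 and 2.11). The salm gene, the neighbour and relative of salr, averaged 3.23, 1.09 and 1.56 TP10K in X. Of 11 annotation factors, 0 were higher and 2, acj6 and fkh, were lower in X than in all named types at each stage, against 1.69, 1.8 and 2.73% higher and 0.816, 0.84 and 1.06% lower among all genes.

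X differed from the cholinergic named types in its transmitter genes, and part of its cells carried the vesicular glutamate transporter. Of the transmitter genes that could be compared (9, 8 and 10 of 16), 3 were higher in X than in each named type at every stage and 0 were lower: VGlut, the dopa decarboxylase gene Ddc and the dopamine transporter gene DAT. Among all genes 1.69, 1.8 and 2.73% were higher and 0.816, 0.84 and 1.06% lower at 48, 72 and 96 h APF. Transmitter genes that entered the comparison through X alone can only stand higher in X. The counts are therefore no result about the list. VGlut is FBgn0031424, on 2L at 2400295 to 2410662, plus strand. The X strains ranged between 3.24 and 9.14 TP10K of VGlut (median 7.0), 8.28 and 13.9 (median 9.53), and 4.86 and 14.9 (median 11.2) at 48, 72 and 96 h APF. The mean of VGlut at 48 h APF was 6.3 ± 2.42 TP10K in X, against 0.00416 and 0.00516 in LPLC2 and LPLC1 and 0 UMIs in LC4, than which X was at least 1860-fold higher. It was 10.0 ± 2.02 TP10K in X at 72 h APF, against 0.0366, 0.0234 and 0.0221 in LPLC2, LPLC1 and LC4. By 96 h APF it was 10.4 ± 3.45 TP10K in X, against 0.0212, 0.0455 and 0.017. In the 4 LC4 strains at 96 h APF, VGlut was at 0.00929, 0.00728, 0.0211 and 0.0305 TP10K, so that no strain came near those of X. Cells with 3 or more UMIs of VGlut made up 53.8, 44.8 and 34.9% of X and at most 0.459% of a named type.

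The acetylcholine genes VAChT and ChAT were present in X and were called neither higher nor lower than in all named types at any stage. VAChT averaged 1.86 ± 1.18, 5.92 ± 2.44 and 6.91 ± 1.76 TP10K in X at 48, 72 and 96 h APF, and at 96 h APF 15.1, 12.2 and 8.16 TP10K in LPLC2, LPLC1 and LC4. ChAT averaged 0.685 ± 0.293, 3.54 ± 1.47 and 5.9 ± 0.611 TP10K in X, and at 96 h APF 5.23, 3.4 and 2.33 TP10K in LPLC2, LPLC1 and LC4. Most single X cells carried one of the 2 vesicular transporters. At 48 h APF 25 of 78 X cells had at least 3 UMIs of VAChT alone among VAChT, VGlut, Gad1 and Vmat, 40 had VGlut alone, 3 Gad1 alone, 2 more than 1 gene and 8 none. At 72 h APF the counts were 58, 36, 2, 20 and 9 of 125 cells, and at 96 h APF 70, 27, 8, 18 and 1 of 126 cells, where 2 further cells had Vmat alone.

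Cells with both VAChT and VGlut numbered 2, 20 and 17, from 6 strains at 72 h APF and 5 strains at 96 h APF. At most 0.459% of the cells of a named type had more than 1 of the 4 genes. The 20 cells of 72 h APF had a median of 26734.5 UMIs, against 20021 in the X cells with VAChT and no VGlut and 18047 in those with VGlut and no VAChT. The 17 cells of 96 h APF had 30853 UMIs, against 16199 and 15793. Their VAChT level was 2.33 and 1.77 TP10K at 72 and 96 h APF, against 11.5 and 12 TP10K in the VAChT cells, and their VGlut level was 23.6 and 31.9 TP10K, against 18.5 and 25.9 TP10K in the VGlut cells. Whether same-strain doublets or free RNA contributed to them was not tested. The gene acj6 reached 3 UMIs in 2 and 0 of these cells and in 13 and 14 of the VAChT cells.

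**Figure D3:**
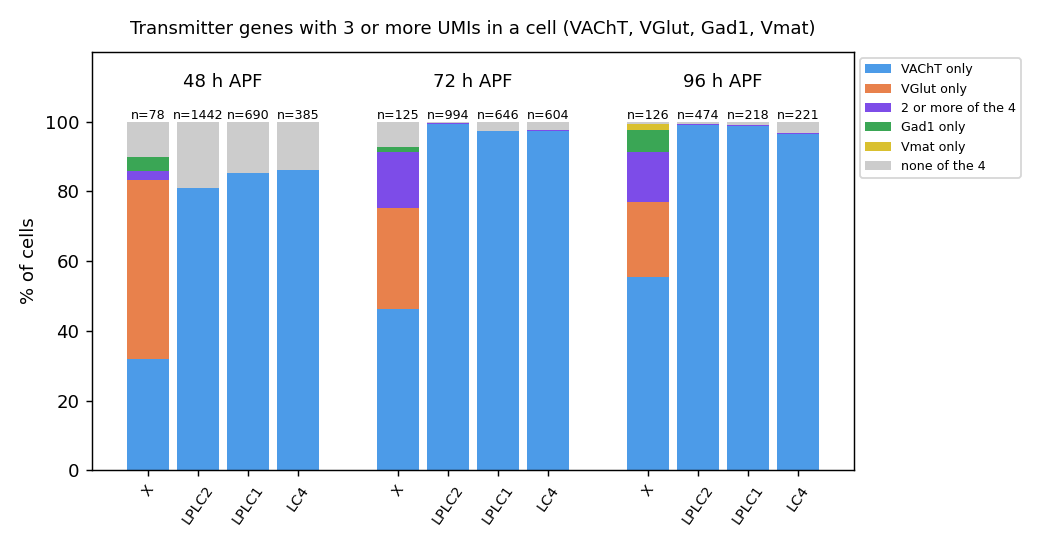
Percent of cells in X, LPLC2, LPLC1 and LC4 at 48, 72 and 96 h APF by which of VAChT, VGlut, Gad1 and Vmat had at least 3 UMIs in the cell. X alone had a large group with VGlut (40, 36 and 27 cells with VGlut and none of the other 3 genes), beside 25, 58 and 70 cells with VAChT alone.

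The amine genes Ddc and DAT were found without the gene of the first step of dopamine synthesis. Ddc averaged 0.77 ± 0.436 TP10K (strains 0.253 to 1.27, median 0.744), 4.31 ± 1.56 (1.93 to 6.1, median 4.35) and 6.6 ± 1.35 (5.21 to 8.78, median 6.05) in X at 48, 72 and 96 h APF. LPLC2 had 0.0504, 0.961 and 2.0 TP10K of Ddc at those stages, and LPLC1 and LC4 at most 0.174. Cells with 3 or more UMIs of Ddc made up 17.9, 70.4 and 78.6% of X. DAT averaged 1.19, 1.17 and 1.1 TP10K in X and at most 0.0082 TP10K in a named type, while ple, the tyrosine hydroxylase gene, did not exceed 0.0778 TP10K in X. The GABA gene Gad1 averaged 8.36 ± 9.28 TP10K in X at 96 h APF, with strains between 0 and 24.4 and 99.7% of its UMIs in 10 cells. Vmat averaged 2.66 ± 4.12 TP10K at that stage and came from 2 cells, both of which also had Tdc2, the tyrosine decarboxylase gene of tyramine synthesis.

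Neuropeptide and receptor genes added to the profile. Among peptide genes, 2 of 10 at 48 h APF, 2 of 13 at 72 h APF and 4 of 10 at 96 h APF were higher in X than in each named type, beside 1.69, 1.8 and 2.73% of all genes. As for the factor list, peptide genes that entered the comparison through X alone can only stand higher in X. The counts follow in part from that rule and are no result about the list. Nplp1 averaged 2.34 ± 1.19, 5.63 ± 1.08 and 5.92 ± 3.14 TP10K in X, with strains between 4.13 and 7.31 at 72 h APF, and at most 0.47 TP10K in a named type. The short neuropeptide F gene sNPF averaged 1.73 ± 1.2, 1.1 ± 1.05 and 12.6 ± 9.86 TP10K in X. Its strains ranged between 4.17 and 31.3 with a median of 10.4 at 96 h APF, and 89.1% of its UMIs lay in 10 cells. The peptide gene spab averaged 4.54 ± 1.73 TP10K in X at that stage, against 0.306, 0.118 and 0.281 in LPLC2, LPLC1 and LC4. The proctolin gene Proc averaged 3.51 ± 2.74 TP10K in X, against 0.684, 0.164 and 0.0305. A high mean of the allatostatin gene AstA at 48 h APF (12.8 ± 20.9 TP10K, strains 0 to 48.8, median 0.0423) came from 3 cells.

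Of 38, 39 and 39 channel and receptor genes compared, 5, 5 and 8 were higher and 1, 0 and 0 lower in X than in each named type. The shares of all genes were 1.69, 1.8 and 2.73% higher and 0.816, 0.84 and 1.06% lower. The same rule of entry applies to this list. The dopamine receptor gene Dop2R and the serotonin receptor gene 5-HT7 were higher at all stages. The strains of X ranged between 3.28 and 7.82 TP10K of Dop2R (median 4.33), 4.92 and 16.8 (median 8.11), and 16.2 and 19 (median 18.3) at 48, 72 and 96 h APF. Its mean at 96 h APF was 17.8 ± 1.23 TP10K in X, against 1.35, 6.1 and 0.195 in LPLC2, LPLC1 and LC4. 5-HT7 averaged 0.722, 1.28 and 0.892 TP10K in X. The Unc13-related gene unc-13-4A (3L 7266192 to 7312896, minus strand) averaged 3.0 ± 0.832, 5.53 ± 1.71 and 5.84 ± 1.67 TP10K in X, and at 96 h APF 0.0186, 0.0124 and 0.0304 TP10K in LPLC2, LPLC1 and LC4. It reached 3 UMIs in 59.0, 72.8 and 60.3% of X cells. The named types' own levels of unc-13-4A were higher at 48 h APF (0.231, 0.178 and 0.094 TP10K), where X stood 13.7, 17.4 and 54.6 times above them.

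The RNA-binding protein genes Syp and Imp, which in fly neural stem cells oppose each other along birth order, differed between X and the named types. Syp was lower in X at every stage, with 11.5 ± 3.84, 2.41 ± 0.855 and 3.33 ± 1.24 TP10K at 48, 72 and 96 h APF. LPLC2 had 26, 4.61 and 7.51 TP10K of Syp, LPLC1 43.2, 10.5 and 9.78, and LC4 63.3, 28.3 and 33.7. The strains of Syp in X at 48 h APF ranged between 7.81 and 17.9 with a median of 10.6, and none reached a strain of a named type. Imp was higher than in all types at 48 h APF (4.85 ± 1.74 TP10K in X, against 1.96, 0.354 and 1.21 in LPLC2, LPLC1 and LC4). At 72 and 96 h APF Imp averaged 4.3 ± 1.19 and 5.64 ± 1.11 TP10K in X, above LPLC1 and LC4 by the same rule and within 2-fold of LPLC2 (2.47 and 3.02 TP10K).

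Other genes also showed a wide gap to all named types. CG46448 averaged 4.57 ± 1.75, 7.35 ± 2.45 and 17.7 ± 6.08 TP10K in X and at most 0.117 TP10K in a named type, and CG43689 averaged 1.48, 3.04 and 2.17 TP10K in X. CG32354 averaged 2.98 TP10K in X at 48 h APF, and RunxA 0.972 and CARPB 2.06 TP10K in X at 96 h APF. On the other side, the tetraspanin gene Tsp42Eo averaged 0.0451, 0.113 and 0.033 TP10K in X, against 0.675, 1.66 and 2.42 TP10K in LPLC2 and 4.9, 6.13 and 8.58 TP10K in LC4. The tetraspanin gene Tsp42Ef was lower in X than in all types at 48 h APF (0.0287 TP10K in X, against 0.777, 0.512 and 0.932), a call lost without strain 399 (log2 difference of -4.15 to the nearest type). The gene bnb averaged 0.048, 0.221 and 0.0676 TP10K in X, against 0.846, 1.33 and 1.82 TP10K in LPLC2. CG34377 averaged 0.0481 TP10K in X at 72 h APF, against 2.06, 2.53 and 1.86 TP10K in LPLC2, LPLC1 and LC4, and CG2016 0.525 TP10K in X at 96 h APF, against 8.48, 8.5 and 15.4. At 72 h APF CR45315 (0.0431 TP10K in X, against 0.893, 0.64 and 0.555), Unc-89 (0.269, against 4.29, 3.44 and 2.99) and CG8401 (0.0949, against 0.824, 1.46 and 0.934) were the other genes of this group. CR45315 lost its call without strain 399 (-4.51 on the log2 scale).

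More recognition genes were called higher than lower in X, in part through the rule by which genes entered the comparison. Of a list of 141 recognition genes, 123, 124 and 119 could be compared at 48, 72 and 96 h APF. In X 9, 12 and 15 of them were higher than in each named type and 0, 0 and 3 were lower, against 1.69, 1.8 and 2.73% higher and 0.816, 0.84 and 1.06% lower among all genes. The list's median difference was 0.35, 0.13 and 0.34 on the log2 scale against LPLC2, LPLC1 and LC4 at 48 h APF, 0.21, 0.08 and 0.64 at 72 h APF, and 0.43, 0.20 and 0.59 at 96 h APF. Those of all genes lay between -0.047 and 0.055. Recognition genes that entered the comparison through X alone can only stand higher in X. How much of the counts and medians follows from that was not tested.

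The secreted semaphorin gene Sema2b was found in many X cells, with 3 or more UMIs in 80.8, 60.0 and 49.2% of X cells. Its strains in X ranged between 4.48 and 13.2 TP10K (median 6.89), 2.19 and 6.74 (median 4.2), and 1.29 and 5.89 (median 2.66) at 48, 72 and 96 h APF. The mean of Sema2b at 48 h APF was 7.69 ± 3.34 TP10K in X, against 0.0471, 0.014 and 0.65 in LPLC2, LPLC1 and LC4. By 96 h APF it was 3.37 ± 2.0 TP10K in X, against 0.0755, 0.0272 and 0.032. In the 4 LC4 strains at 72 h APF, Sema2b was at 0.23, 0.153, 0.194 and 0.179 TP10K, below every X strain.

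Several immunoglobulin receptor genes were at low levels on average in X, and they differed in how few cells carried them. DIP-zeta (2L 9051631 to 9071164, minus strand) averaged 1.65 ± 1.35, 1.84 ± 1.18 and 1.28 ± 0.548 TP10K in X and at most 0.0165 TP10K in a named type. It reached 3 UMIs in 17.9, 18.4 and 17.5% of X cells. LPLC2 and LPLC1 had 0 UMIs of DIP-zeta at 96 h APF, and X was at least 380-fold and at least 190-fold above them. For DIP-zeta 91.4, 77.1 and 78.3% of the UMIs of X came from 10 cells. These shares were 92.3, 61.2 and 79.8% for DIP-alpha, 51.1, 80.2 and 73.7% for DIP-lambda, and 44.2, 38.9 and 41.0% for DIP-gamma. DIP-alpha averaged 0.928, 2.81 ± 0.734 and 1.61 TP10K in X, and at 72 h APF its pooled level was 71.8, 43.6 and 57.9 times that of LPLC2, LPLC1 and LC4. DIP-lambda averaged 2.41, 2.18 and 3.28 TP10K in X and DIP-gamma 1.35 ± 0.3, 1.23 and 0.893 TP10K, the closest named type for DIP-gamma being LPLC2 with 0.112, 0.278 and 0.135 TP10K.

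Of the Beat family, whose members bind Side proteins on other cells, beat-VII was higher in X at every stage. It averaged 1.87 ± 0.896, 2.56 ± 0.812 and 4.37 ± 1.89 TP10K in X, and at 96 h APF 0.0492, 0.207 and 0.0196 TP10K in LPLC2, LPLC1 and LC4. In X 55.1, 55.2 and 51.6% of cells had 3 or more UMIs of beat-VII. The gene beat-Ia averaged 5.4 ± 0.796 TP10K in X at 48 h APF (strains 4.52 to 6.84, median 5.31), against 0.289, 2.39 and 0.0421 TP10K in LPLC2, LPLC1 and LC4. Its relative beat-Ic averaged 3.68 ± 1.81 TP10K in X at 96 h APF, against 0.312, 0.381 and 0.121. The receptor phosphatase gene Ptp10D varied little between the X strains at 96 h APF, from 1.16 to 1.29 TP10K (mean 1.22 ± 0.0531), against means of 0.0639, 0.111 and 0.113 TP10K in LPLC2, LPLC1 and LC4. Lower in X at 96 h APF were the immunoglobulin gene bdl (0.0532 TP10K in X, against 0.598, 0.944 and 2.45), Toll-7 (0.688, against 1.57, 2.2 and 1.58) and dpr20 (0.831, against 2.5, 3.02 and 2.03).

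The same combinations of genes returned in X cells of several strains and at several stages. These combinations were picked after the X cells of each stage had been divided by their expression, so their counts are a description. Cells with at least 3 UMIs of each of br, salr and VGlut numbered 28, 19 and 17 at 48, 72 and 96 h APF, from 6 strains at each stage. Cells with otp, scro and VGlut numbered 23, 20 and 19, also from 6 strains each, and of the cells with otp 27 of 27, 21 of 21 and 20 of 21 had VGlut. Cells with eya, svp and VGlut numbered 10, 16 and 8, from 6, 6 and 4 strains. Lim1 and VGlut were rarely found in the same cell: of 23, 34 and 30 X cells with Lim1, 0, 2 and 0 had VGlut, while 19, 32 and 28 had VAChT.

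Other combinations were seen at some stages. Cells with kn, acj6 and VAChT numbered 0, 9 and 10 at 48, 72 and 96 h APF, from 4 and 5 strains at the later stages. This combination is not particular to X, since 86.2, 93.0 and 94.1% of LC4 cells had it. At the later stages 8 and 6 X cells with kn and acj6 also had the diuretic hormone gene Dh44, and 0 LC4 cells did. Cells with sNPF, the bHLH gene Fer1 and VGlut numbered 0, 3 and 13, from 3 and 5 strains. Cells with Lim1, pnt and VAChT numbered 7, 4 and 2. At 48 h APF 4 cells of 2 strains had ey, Mef2 and jdp, and 3 cells of 2 strains had AstA, AstC and VAChT; neither combination was seen later. Every X cell with Gad1 (3, 2 and 9) also had CG14989.

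Divided by expression, the X cells fell into 6 divisions at 48 h APF (27, 20, 10, 9, 8 and 4 cells), 8 at 72 h APF (25, 22, 18, 16, 13, 11, 10 and 10) and 10 at 96 h APF (28, 18, 17, 13, 12, 10, 8, 7, 7 and 6). They are named here by leading genes and were given no cell type. With 5 and 15 in place of 10 principal components there were 5 and 7, 7 and 9, and 10 and 12 divisions. The adjusted Rand index to the division used, which is 1 for the same grouping, was 0.611 and 0.761, 0.115 and 0.295, and 0.555 and 0.658 at 48, 72 and 96 h APF. The limits between divisions thus moved most at 72 h APF.

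At 48 h APF the division of 20 cells led by DAT, CG32354, otp, Ilp7 and app had 13.2 TP10K of VGlut, 33.6 TP10K of br and 5.53 TP10K of otp. The 8 cells led by TyrR, rgn, Sulf1, br and regucalcin had 48.4 TP10K of br and 6.69 TP10K of scro. The 10 cells led by DIP-alpha, sNPF-R, eya, CG43689 and ap had 12.9 TP10K of VGlut, 61.4 TP10K of bru3 and no UMI of Lim1 or salr. The 9 cells led by Nep1, pnt, Optix, Ets65A and CG9896 had 22.5 TP10K of Lim1, 2.94 TP10K of VAChT and no VGlut. The 27 cells led by CG33639, Con, Octalpha2R, hth and CG42524 had 3.81 TP10K of VAChT and 3.08 TP10K of kn (3 or more UMIs of kn in 5 cells), and the 4 cells led by jdp, Pka-C3, ey, fru and Mef2 had 4.33 TP10K of VAChT.

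At 72 h APF the 25 cells led by SP1029, Sulf1, scro, otp and DAT had 14.8 TP10K of VGlut and 19.2 TP10K of br. The 22 cells led by eya, Gadd45, svp, sNPF-R and so had 13.4 TP10K of VGlut and 48.9 TP10K of bru3. The 10 cells led by kn, Dh44, TkR86C, Dh31 and acj6 had 10.6 TP10K of kn, 6.57 TP10K of acj6 and 9.32 TP10K of VAChT. The 16 cells led by CG13579, haf, CG31345, Lim1 and DIP-zeta had 10.3 TP10K of Lim1. The 13 cells led by pdm3, CG17193, CG31997, sNPF and CG42541 had 6.39 TP10K of VAChT, and the 11 cells led by CG13229, bab2, jus, mamo and robo3 had 4.82 TP10K of br. A pair of divisions stood low in depth. The 18 cells led by CR43836, eys, RhoGDI, rdgA and DIP-kappa, with mitochondrial genes among the next, had a median of 12169 UMIs, 0.531 of the stage's median over all annotated cells. The rhodopsin gene ninaE reached 3 UMIs in 2 of these 18 cells, and 1 cell held 516 of the 825 UMIs of ninaE in X at 72 h APF. The 10 cells led by Obp44a, CG15201, CG11159, nrv2 and mfas had a median of 8364 UMIs, 0.365 of the stage's median, and the glial gene repo reached 3 UMIs in 2 of them.

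At 96 h APF the 17 cells led by scro, otp, br, salm and DAT had 18.8 TP10K of VGlut, 24.7 TP10K of br and 11.4 TP10K of scro. The 10 cells led by svp, Dif, eya, Vsx1 and DIP-alpha had 31.0 TP10K of VGlut and 6.45 TP10K of svp. The 13 cells led by sNPF, Grd, Fer1, DIP-lambda and CR45223 had 30.8 TP10K of VGlut and 85.1 TP10K of bru3, and came from 5 strains. The 6 cells led by Dh44, kn, TkR86C, Rgk1 and acj6 had 14.8 TP10K of kn, 7.45 TP10K of acj6 and 12.9 TP10K of VAChT. The cells with VAChT and little VGlut fell into further divisions. There were 28 cells led by DIP-theta, trn, CG43759, Neto and CR46006 (11 TP10K of VAChT) and 12 led by Ets96B, Fkbp14, Fer2, bi and CG31191 (13.5 TP10K of VAChT). There were also 7 led by sv, Bx, Lmpt, lz and CARPB (11.2 TP10K of Lim1) and 7 led by dve, oc, CG32532, mirr and CG7991 (7.36 TP10K of VAChT). The 8 cells led by Tk, CG2016, CG9896, Drgx and SoxN were the exception for bru3, with 1.26 TP10K, and had 12.3 TP10K of scro (3 or more UMIs in 5 cells), 5.68 TP10K of acj6 (in 3 cells) and a median of 7246.5 UMIs. The 18 cells led by Galphaq, eys, LpR1, CG32225 and DIP-delta were mixed: 5 of them had 3 or more UMIs of Gad1 and 5 of VGlut, and no X cell of the stage had both. The pooled levels of these 18 cells were 29.0 TP10K of Gad1 and 14.3 TP10K of VGlut. The ninaE UMIs of X at 96 h APF lay almost wholly in 1 cell, with 1537 of 1563.

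**Figure D4:**
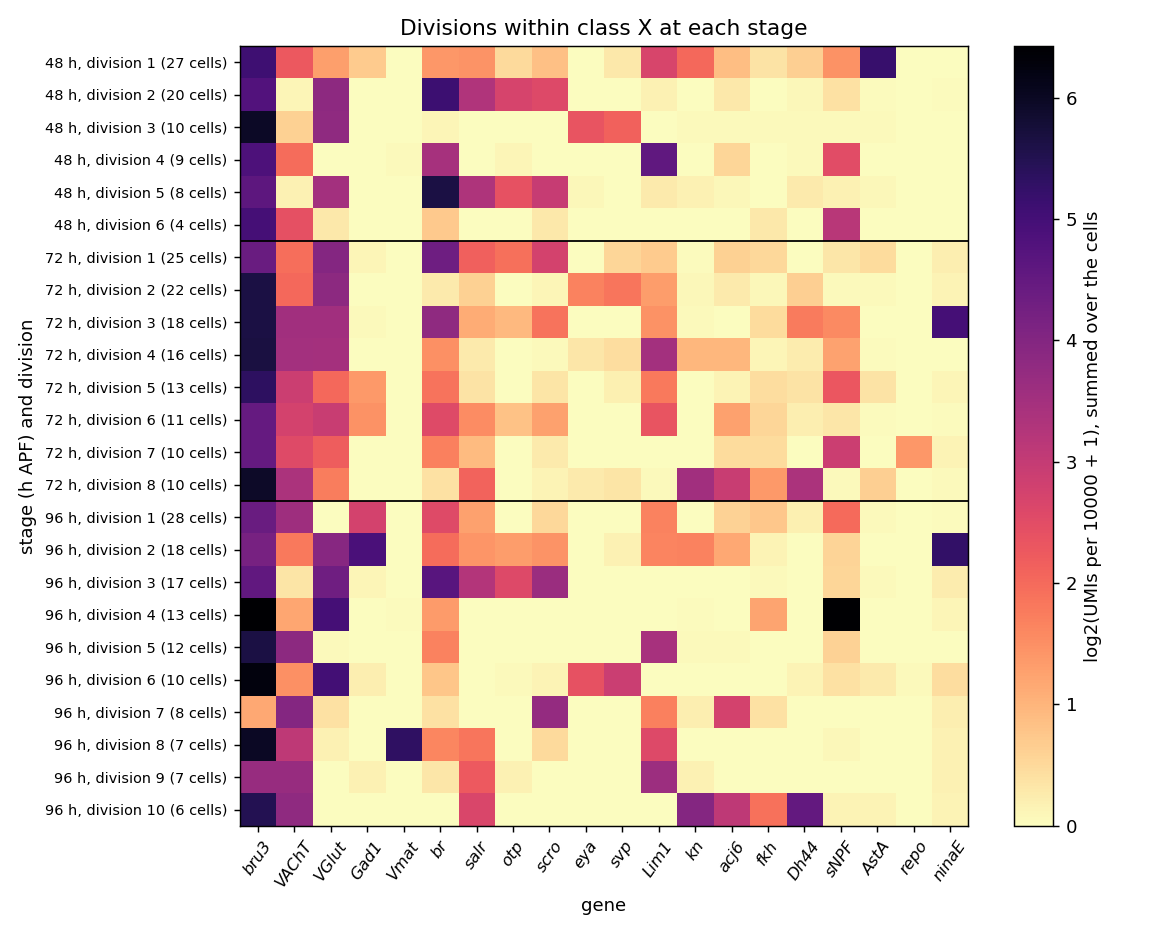
Level (colour, log2 of TP10K + 1 over the summed cells) of 20 named genes in each division of the X cells at 48, 72 and 96 h APF, with the number of cells of each division. VGlut, br, otp and scro were high together in divisions at every stage, svp and eya in others. Lim1 was high where VGlut was low at 48 and 96 h APF, and bru3 was at 11.9 TP10K or more in all divisions but the one led by Tk at 96 h APF.

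Between stages the X cells changed as a group. Sums over X cells per strain were compared with edgeR's quasi-likelihood test (Benjamini-Hochberg adjusted p under 0.05) over 4112 genes; the p-values measure the spread between strains within 1 library per stage. At 72 against 48 h APF 818 genes were higher (19.9%) and 821 lower (20%). Of the same genes 477 were higher (11.6%) and 558 lower (13.6%) at 96 against 72 h APF. Without overlap between the strains were 411 (10%), 394 (9.58%), 309 (7.51%) and 232 (5.64%) of these. The mix of cells inside X was not held constant between stages, so a change in X can be a change within cells or in which cells were sampled, and these cannot be told apart.

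Of 17 ecdysone-related and temporal genes, 4 were higher and 5 lower at 72 than at 48 h APF, and 2 higher and 5 lower at 96 than at 72 h APF. That stood against 19.9 and 20% of all genes at the first step and 11.6 and 13.6% at the second. The nuclear receptor gene ftz-f1 peaked at 72 h APF: its strains ranged between 0.212 and 1.67 TP10K (median 0.508), 3.19 and 9.76 (median 7.18), and 0.695 and 2.76 (median 1.52) at the 3 stages. The change was 3.23 on the log2 scale at 72 against 48 h APF (SE 0.423, edgeR adjusted p = 1.11e-05) and -2.08 at 96 against 72 h APF (SE 0.381), and the strains of 72 h APF overlapped with neither other stage. The ecdysone receptor gene EcR followed the same order with a smaller change, with medians of 2.63, 5.26 and 3.11 TP10K. The nuclear receptor gene Hr4 was at medians of 6.7, 4.4 and 0.224 TP10K. It fell by 4.47 on the log2 scale at 96 against 72 h APF (SE 0.324, edgeR adjusted p = 2.06e-09). The repressor gene Blimp-1 was lowest at 72 h APF, with strains between 1.57 and 3.85, 0.132 and 0.382, and 0.782 and 1.5 TP10K at the 3 stages. Kr-h1, a zinc-finger gene that responds to juvenile hormone, had 0 UMIs in X at 48 h APF. Its strains ranged between 0.315 and 1.04 TP10K at 96 h APF (mean 0.624, against 0.00763 at 72 h APF; log2 change of 5.59, SE 0.542, edgeR adjusted p = 4.01e-07). Eip93F and Syp fell at 72 h APF, by 1.79 and by 2.29 on the log2 scale.

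**Figure D5:**
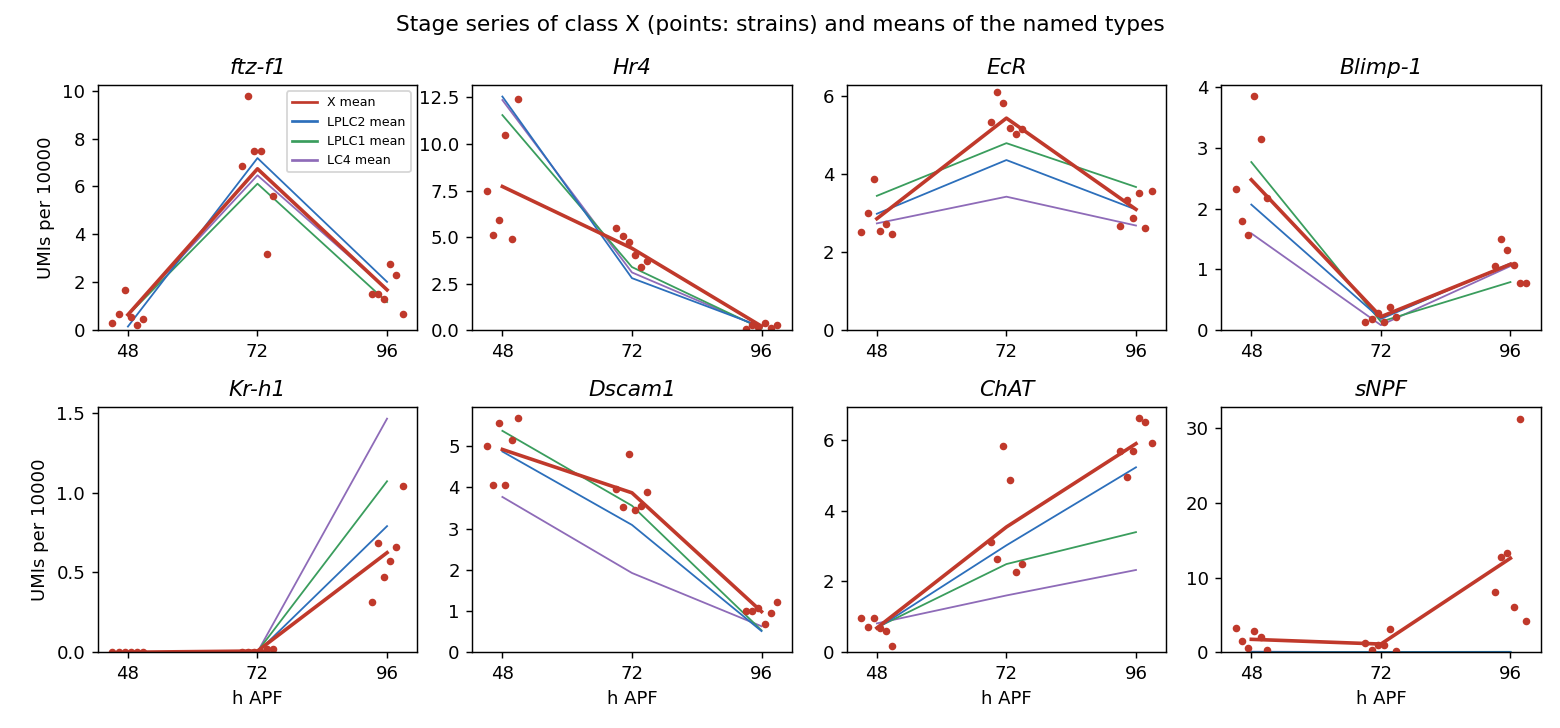
Level (UMIs per 10000) of ftz-f1, Hr4, EcR, Blimp-1, Kr-h1, Dscam1, ChAT and sNPF at 48, 72 and 96 h APF; points are the strains of X and lines the means of X, LPLC2, LPLC1 and LC4. In X ftz-f1 was highest at 72 h APF (median 7.18 TP10K), Hr4 and Dscam1 were lowest at 96 h APF (medians 0.224 and 1.0 TP10K), and ChAT was higher at 72 and 96 h APF than at 48 h APF.

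Among recognition genes, those that passed between the 2 later stages all fell. Of 118 tested, 10 rose and 16 fell at 72 against 48 h APF (median -0.09 on the log2 scale, all genes 0.00). At the second step 0 rose, 39 fell and the others did not pass at 96 against 72 h APF (median -0.49, all genes 0.01). Of all genes 19.9% were higher and 20% lower at the first step, and 11.6 and 13.6% at the second. Dscam1, the homophilic receptor with many isoforms that sets sister neurites apart, had strains between 4.05 and 5.69, 3.45 and 4.82, and 0.678 and 1.22 TP10K at the 3 stages. It fell by 2.14 on the log2 scale at 96 against 72 h APF (SE 0.148, edgeR adjusted p = 3.95e-10) and the strains did not overlap. The N-cadherin gene CadN averaged 5.78 TP10K at 96 h APF, against 12 at 72 h APF, and Dscam2, caps, sdk and Fas3 fell by 1.30, 1.30, 2.15 and 2.62 on the log2 scale. At 72 h APF DIP-alpha (log2 change 1.51) and DIP-eta (3.2) rose, and Nrt and hbs fell by 2.15 and 1.90.

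Of 9 transmitter genes tested, 4 rose and 1 fell at 72 against 48 h APF, against 19.9 and 20% of all genes. At 96 against 72 h APF 2 rose and 0 fell, against 11.6 and 13.6% of all genes. ChAT and the choline transporter gene ChT rose by 2.32 each on the log2 scale at 72 h APF (SE 0.281 and adjusted p = 2.13e-06 for ChAT, edgeR). At that step VAChT rose by 1.62 (SE 0.396, adjusted p = 0.00355) and Ddc by 2.43 (SE 0.333, adjusted p = 1.3e-05), while Tbh fell. At 96 h APF VGAT rose (log2 change 1.45), and Gad1 rose (4.24) on the UMIs of 9 cells. Of 6 peptide genes 2 rose and 0 fell at each step, beside the same shares of all genes. They were Nplp1 (log2 change 1.23) and spab at 72 h APF, and sNPF (3.35, SE 0.67, adjusted p = 0.00145) and Proc (2.72) at 96 h APF. Of 39 channel and receptor genes, 12 rose and 3 fell at 72 h APF, beside 19.9 and 20% of all genes, among them nAChRalpha3 (1.45) and Nmdar1 (1.35). At 96 h APF 3 rose and 12 fell, beside 11.6 and 13.6% of all genes, among them nAChRalpha5 and Rdl, which fell by 1.42 and 0.94.

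Of the 10 tested annotation factors 2 rose and 3 fell at 72 against 48 h APF, against 19.9 and 20% of all genes, and 0 passed at 96 against 72 h APF, against 11.6 and 13.6%. At 72 against 48 h APF br, salr and salm fell, by 1.32, 1.39 and 1.59 on the log2 scale (for br SE 0.358, edgeR adjusted p = 0.0071). The genes fkh and tup rose by 1.5 and 2.39 (for fkh SE 0.563, edgeR adjusted p = 0.0397). Of 63 factors of the longer list 8 rose and 12 fell at 72 h APF, and 4 rose and 2 fell at 96 h APF. Beside the shares of all genes just given, these counts were near or below them. The homeobox gene otp fell by 1.40 and vg by 2.34 at 72 h APF, and vvl rose by 1.94 at 96 h APF.

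The genes with the largest changes and no overlap between strains were mostly of low level. At 72 against 48 h APF the first was CG17029 (0.719 TP10K at 72 h APF and 0 UMIs at 48 h APF; log2 change 7.81, SE 0.773, edgeR adjusted p = 7.96e-07). Next among those that rose were CG8620 (5.68), CG7582 (5.39), CG17026 (5.22) and the odorant receptor gene Or63a (5.14). Among those that fell were CG12643 (-4.74), the fatty acid binding protein gene fabp (-4.0; 0.416 TP10K at 72 h APF, against 6.32 at 48 h APF), nemy (-3.63), Blimp-1 (-3.49) and HINT1 (-3.17). At 96 against 72 h APF CG11099 rose most (2.07 TP10K at 96 h APF and 0 UMIs at 72 h APF, with strains between 1.67 and 2.43), before CG4678 (8.30), Drep4 (6.52), CG5644 (5.95) and Kr-h1. In the other direction inaF-D (-6.57), SP1029 (-5.76), the Notch receptor gene N (-4.87; 0.01 TP10K at 96 h APF, against 0.437 at 72 h APF), CG13055 (-4.66) and Hr4 fell.

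For few genes did the change of X with stage differ from that of every named type. The change of X minus the change of a named type was tested in 1 edgeR model over 7210 genes. Between 48 and 72 h APF 6.17% of genes were higher and 8.31% lower in this difference against LPLC2, 3.62 and 5.67% against LPLC1, and 8.2 and 8.68% against LC4. Between 72 and 96 h APF the shares were 4.16 and 2.87%, 5.41 and 3.84%, and 9.43 and 8.54%. Past the threshold in the same direction against all 3 types were 92 genes higher (1.28%) and 141 lower (1.96%) at the first step, and 74 higher (1.03%) and 68 lower (0.943%) at the second. These counts depended on single strains: without strain 730 the first was 60, without 799 the second 92, without 399 or 535 the third 38 or 37, and without 320, 535 or 805 the fourth 42, 37 or 40. Among the marker genes br fell by more in X than in all 3 types between 48 and 72 h APF, with differences of -0.99 against LPLC2, -1.17 against LPLC1 and -1.04 against LC4 on the log2 scale (adjusted p = 0.0361, 0.00539 and 0.0138, edgeR). For VAChT no difference passed against any type at either step, and for ChAT 1 passed, against LC4 between 48 and 72 h APF (1.18, adjusted p = 0.00363).

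For the peptide genes spab and Nplp1 the change in X between 72 and 96 h APF was higher than in each named type. Neither gene passed as changed within X itself at this step, so these differences do not show a rise in X. Nplp1 was already higher in X than in all named types at 48 and 72 h APF. The level of spab averaged 0.903, 2.94 and 4.54 TP10K in X at 48, 72 and 96 h APF, and LPLC2 had 0.0912, 3.49 and 0.306 TP10K. Its strains in X ranged between 3.32 and 7.94 TP10K at 96 h APF with a median of 3.91. The change of spab in X minus that in LPLC2, LPLC1 and LC4 was 4.04, 3.23 and 3.16 on the log2 scale (adjusted p = 2.97e-07, 0.00132 and 0.000125, edgeR). For Nplp1 it was 2.66, 4.03 and 2.29 (adjusted p = 4.61e-05, 3.3e-06 and 0.0277, edgeR), with 5.92 TP10K in X at 96 h APF, against 0.056, 0.0384 and 0.023 TP10K in LPLC2, LPLC1 and LC4. The octopamine receptor gene Octbeta1R averaged 1.65 TP10K in X at 72 h APF and 2.4 at 96 h APF, and 0.163 and 0.0357 TP10K in LPLC2 (differences of 2.71, 2.28 and 4.60 against LPLC2, LPLC1 and LC4). For Dscam1, which fell in X, the difference between 72 and 96 h APF was 0.60 against LPLC2 and 0.79 against LPLC1 (adjusted p = 0.012 and 0.000974, edgeR), and -0.47 against LC4 (adjusted p = 0.057, edgeR).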

How the data were processed

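Cells were sorted, sequenced with the 10x Chromium 3′ v3.1 kit and, per the labels, processed with Cell Ranger and Seurat 5.0.1 on the dm6 build; strains were assigned with demuxlet. The authors deposited UMI counts per gene (17824 genes) and cell barcode without normalization, with the percent of mitochondrial UMIs and a class label for each annotated cell. Deposited annotated cells outside the stated limits (10000 to 50000 UMIs, at most 10% mitochondrial) were kept, since the labels include them; 2286, 2043 and 858 of 2595, 2369 and 1039 lie within them. Counts were summed by strain, class and stage (at least 5 cells) and fitted with edgeR 4.0.16 in R 4.3.3 (TMM, filterByExpr), with the strain as a block within a stage and no block between stages. Deviations of X from its mean correlated with those of the same strain of a named type at 0.103 to 0.328 (LPLC2), 0.101 to 0.279 (LPLC1) and 0.116 to 0.211 (LC4) at 96 h APF. At the earlier stages they correlated at -0.072 to 0.368. Cells of a strain share a chromosome, and the collection groups of strains differed in age. The origin of these correlations was not tested. Between stages X sums of the same strain correlated at -0.21 to 0.141.

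X cells were divided with scanpy 1.11.5 (1000 variable genes, 10 components, 8 neighbours, resolution 1.0). Positions are those of an Ensembl annotation of dm6 in which 101 of 106 genes looked up were matched. On simulated counts with 200 changed genes, the test of X at 72 against 48 h APF found 65% of 2-fold changes. It found 91% of 4-fold changes (3985 genes run, 10 unchanged genes called). The difference of changes against LPLC2 found 43% and 75% (6796 genes, 5 called). The description rule against LPLC2 at 72 h APF found 21% and 52% (6778 genes, 1 called). These rates hold for the simulated counts and were not measured on the real sums of X. Genes named are the annotation factors, the transmitter genes, per stage the 10 higher and 5 lower genes with the largest gap to the nearest of the 3 types, the 10 factors and 10 recognition genes with the largest such gap, per pair of stages the 5 with the largest change in each direction without strain overlap, the 3 in each direction with the largest difference of changes against LPLC2 that also passed against the other types, the 5 leading genes of each division, and list members given as examples after their values were seen. The members and lists were chosen with earlier results of these data known. Alternatives were another normalization, test, filter, threshold and set of cells, the block, and leaving out each strain. Barcodes without a class label entered no comparison.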

Additional observations from a re-analysis of the deposited data

Results flagged for a closer look

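In 9 of 68 tests on sets of 6 strain values, the highest strain lay apart from the others. Chance gives about 1 in 20 for normally distributed values, which levels from few UMIs need not be. Strain 555 had 4.91% X cells at 48 h APF, where the others had 2.09 to 2.97%. For acj6 at 48 h APF strain 799 had 1.24 TP10K in X (others 0.0846 to 0.46), for VGlut at 72 h APF strain 399 had 13.9 TP10K (others 8.28 to 10.2), and for DIP-zeta at 72 h APF strain 320 had 4.06 TP10K (others 0.809 to 1.83). At 96 h APF strain 799 had 31.3 TP10K of sNPF (others 4.17 to 13.3) and 1.85 TP10K of CG2016 (others 0.131 to 0.46), and strain 805 had 5.21 TP10K of CARPB (others 0.878 to 2.2). Strain 730 had 0.198 TP10K of CG34377 at 72 h APF (others 0 to 0.0674) and 0.106 TP10K of CG8401 at 96 h APF (others 0 to 0.02), levels at which a few UMIs decide.

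Among the genes whose change in X between stages differed from that of LPLC2 (edgeR interaction, log2, adjusted p), 12 were picked: the 3 largest in each direction and step that also passed against LPLC1 and LC4. Between 48 and 72 h APF these were Arc1 (7.905, adjusted p = 9.72e-05), TyrRII (7.741, adjusted p = 0.0053), trol (7.051, adjusted p = 0.0079), CG6023 (-6.867, adjusted p = 3.72e-10), TfIIA-S-2 (-6.161, adjusted p = 0.00169) and CG11835 (-4.843, adjusted p = 0.000658). For Arc1 the level of X at 72 h APF came mostly from strain 799 (16.6 TP10K; median of the strains 0.0), where 1 cell held 528 UMIs, and without that strain the value was -1.11. The level of trol in X averaged 3.51 TP10K at 72 h APF, of which 99.6% lay in 10 cells, and without X cells that had glial or photoreceptor UMIs the difference was 3.29 and did not pass. TyrRII averaged 0.0297 TP10K in X at 72 h APF, and CG6023 0.0747 TP10K at 72 h APF and 0.278 TP10K at 48 h APF. Without strain 555 TfIIA-S-2 was at -0.90, and without strain 730 CG11835 was at -3.16; neither passed.

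Between 72 and 96 h APF these were spab (4.043, adjusted p = 2.97e-07), CG14274 (3.512, adjusted p = 2.5e-07), Octbeta1R (2.708, adjusted p = 0.00225), CG44006 (-6.998, adjusted p = 0.00633), nopo (-6.56, adjusted p = 0.00992) and pbl (-4.618, adjusted p = 0.0119). CG14274 averaged 0.447 TP10K in X at 96 h APF, against 0.44 at 72 h APF, while LPLC2 had 0.161 TP10K at 96 h APF, against 2.11 at 72 h APF. The last 3 had at most 0.102 TP10K in X at these stages. Calls were lost without strain 799 (CG44006 at -5.58, nopo at -6.36), without 730 (nopo at -6.21) and without 535 (pbl at -3.72).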

How the results depend on the processing

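With a 4-fold in place of a 2-fold threshold, 58, 61 and 80 genes were higher and 9, 14 and 23 lower in X than in all named types at 48, 72 and 96 h APF. Of the genes whose change in X differed from that of each named type, those higher between 48 and 72 h APF numbered 152 with DESeq2 and 59 with limma voom and a spread for each class (tried after seeing the data), and 60 to 101 when each strain was left out; those lower numbered 92 to 132. Between 72 and 96 h APF those higher numbered 49 with voom and 37 to 73 without single strains, and those lower 31 without a filter on low counts, 106 with DESeq2, 43 with voom and 37 to 78 without single strains. The cause was not tested. Without the replicate block within stages, 110, 120 and 154 genes were higher and 50, 54 and 62 lower in X than in all named types, and with it between stages 687 and 387 genes rose in X and 747 and 501 fell; the block moved no count by over 1.5 times and changed no call of a named gene.

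Per 100 LPLC2 and LPLC1 cells, strains without the LC4 driver had -1.84 and -0.875 X cells compared with the others, a reversed direction. The difference in median UMIs of X to LPLC1 at 48 h APF ranged between -1299 and 1137 without single strains (-228 without 399), to LPLC2 at 96 h APF between -1294 and 2916, to LPLC1 at 96 h APF between -2121 and 2627 and to LC4 at 96 h APF between -7115 and 239. After thinning to 5000 UMIs a cell, VAChT had a UMI in 37.2, 64.8 and 67.5% of X cells (55.1, 82.4 and 81.0% unthinned), acj6 in 7.69% at 48 and 17.6% at 72 h APF, br in 37.6% at 72 and 43.7% at 96 h APF, salr in 32% at 72 h APF, and fkh in 14.4% at 72 and 12.7% at 96 h APF. Among named genes 1014 values kept direction and call, 18 lost the call and 1, Arc1, reversed: its value against LPLC2 ranged between -1.11 (without strain 799) and 8.59 without single strains. With 78 to 126 X cells in 1 library a stage, genes carried by few X cells rest on few UMIs.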
